A study of Mus musculus with 2 samples.

Results

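Within the Cnot8 KO line, 48h-EpiLCs that still carried transcripts of naïve transcription factors were compared with 48h-EpiLCs that carried the formative gene Fgf5. Both groups were cut from the same library by the UMIs (unique molecular identifiers, counts of captured RNA molecules) of 8 genes. For each cell, a naïve score was taken as the UMIs of Klf2, Klf4, Klf5, Zfp42, Esrrb, Tfcp2l1 and Tbx3 per 10000 UMIs. Naïve-retaining cells had a score of at least 4 and 0 Fgf5 UMIs, and Fgf5-high cells had at least 2 Fgf5 UMIs and a score under 2. There were 455 naïve-retaining and 348 Fgf5-high cells, which together were 803 of 2977 KO-line 48h-EpiLCs, of 9400 filtered cells and 12427 barcodes in that library, and of 25611 barcodes in the series. The other 2174 KO-line cells fell between the cuts or met only part of them.

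Naïve pluripotency is the state of the epiblast before implantation, and a network of transcription factors that includes Klf2, Klf4, Esrrb, Tfcp2l1 and Zfp42 (Rex1) holds mouse ESCs in it. When naïve ESCs are moved from medium with LIF to activin A and FGF, the network is dismantled and cells pass into a formative state. That state is marked by Fgf5, Pou3f1, Otx2 and the de novo DNA methyltransferases. The Ccr4-Not complex, of which Cnot8 is a catalytic subunit, shortens poly(A) tails and so speeds the decay of mRNAs.

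The series had 2 droplet libraries of mouse cells of the ICR strain, ESCs in serum/LIF on feeder cells (S/LIF, 0 h) and EpiLCs after 48 h in N2B27 medium with activin A, bFGF and KSR on Matrigel. The study's EpiLC protocol starts from ESCs in 2i/LIF medium (kinase inhibitors with LIF), so the serum/LIF ESCs may not be the parent culture. In every comparison with these ESCs, and in the stage genes, stage and ESC medium cannot be told apart. WT cells with the ROSA mT/mG reporter, which express tdTomato, and Cnot8 KO cells had been pooled in equal number for each library, although the genotype label of both reads wild type. There was 1 library per stage and 1 mixture of each, so no difference given here has a replicate check, no test was run, and cells are not counted as replicates. The 2 libraries shared 41 barcodes, none of them a barcode of the 803 cells.

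The line of a cell was called from its own transcripts, since the deposited matrices do not name it. KO-line cells had at least 2 UMIs over the Y-linked genes Ddx3y, Eif2s3y, Kdm5d and Uty and no tdTomato UMI. Among filtered 48h-EpiLCs, tdTomato was detected in 35 of 3012 cells with at least 2 Y-linked UMIs (1.16%) and in 368 of 4615 cells with none (7.97%). Cnot8 RNA itself gave no check of the KO label, at 67.5 CPM (the UMIs of a gene scaled to a fixed total for each group of cells) in naïve-retaining cells (95% Poisson interval 61.8 to 73.5), 63.5 CPM in Fgf5-high cells (58.1 to 69.2) and 49.0 CPM in the WT line (47.1 to 51.0). Genotype, sex and any other difference between the lines cannot be told apart. All intervals are at 95% and cover counting error only.

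The levels of the chosen genes describe the choice and are not a finding. Klf2 stood at 260 CPM in naïve-retaining cells, 30.0 CPM in Fgf5-high cells and 462 CPM in KO-line ESCs. Zfp42 stood at 282, 34.1 and 603 CPM in the same order. These 2 genes made up 37.9% and 41.1% of the score UMIs, and 384 of 455 naïve-retaining cells (84.4%) carried both. Klf5 stood at 83.6, 16.2 and 209.7 CPM. Esrrb, a nuclear receptor, reached 25.01 CPM in naïve-retaining cells against 56.6 CPM in KO-line ESCs, Tfcp2l1 20.0 against 43.5 CPM, Klf4 9.62 against 92.0 CPM and Tbx3 6.16 against 42.0 CPM. The naïve-retaining cells thus carried all 7 transcripts below the ESC level, and Klf4 and Tbx3 lay furthest below it. Of these cells, 174 had UMIs of 3 of the 7 genes, 105 of 2, 111 of 4, and 3 cells had all of them. Fgf5, a secreted FGF ligand, stood at 129 CPM in Fgf5-high cells and 1.29 CPM in KO-line ESCs, of which 1 of 2978 met the Fgf5-high cuts.

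Measured without its own part in the choice, each score gene was still higher in cells chosen by the other 6. Zfp42 stood at 261 CPM in 208 cells so chosen as naïve-retaining and at 56.6 CPM in the 441 cells set against them, a 4.599-fold difference (exact binomial interval 4.14 to 5.12). Klf2 differed 3.43-fold (3.08 to 3.82), Esrrb 3.68-fold (2.63 to 5.24), Tfcp2l1 5.76-fold (3.70 to 9.34), Klf5 2.71-fold (2.28 to 3.21) and Klf4 1.72-fold (1.15 to 2.62). Tbx3, with 42 and 7 UMIs, differed 6.41-fold (2.85 to 16.9). Fgf5, measured without its part in the choice, was 2.60-fold higher (2.22 to 3.05) in the 1528 cells with a score under 2 (45.0 CPM) than in the 573 cells with a score of at least 4 (17.3 CPM).

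The score is a range and not a cell type. The share of KO-line cells with at least 2 Fgf5 UMIs was 26.2% (exact binomial interval 23.1 to 29.3) at a score under 1, 19.0% at 1 to 2, 17.8% at 2 to 3, 12.3% at 3 to 4, 6.99% at 4 to 6 and 4.18% (2.18 to 7.19) at 6 or more. The median depth of these bins lay between 15945 and 18714.5 UMIs per cell. There were 32 cells with a score of at least 4 and at least 2 Fgf5 UMIs. Many cells lay near the cuts. Of the naïve-retaining cells, 132 had a score of 4 to under 5, and 216 cells without Fgf5 UMIs lay just outside at 3 to under 4. Of the Fgf5-high cells, 178 had exactly 2 Fgf5 UMIs, and 340 cells with a score under 2 had exactly 1. Just inside and just outside the score cut, Sox2 stood at 157 and 144 CPM, Calcoco2 at 38.5 and 31.6 CPM, Pou3f1 at 316 and 315 CPM and Dnmt3b at 390 and 382 CPM. Larger steps at this cut, with intervals that did not overlap, were those of Pdgfa, at 61.2 (51.5 to 72.0) and 34.2 CPM (28.7 to 40.5), and of Lefty1, at 257 (237 to 278) and 338 CPM (321 to 357). With exactly 2 and exactly 1 Fgf5 UMIs at a score under 2, Pim2 stood at 234 (219 to 250) and 220.3 CPM (210 to 231). Intervals that did not overlap at this cut were those of Dnmt3b, at 608 (583.5 to 632.3) and 565 CPM (548.2 to 582.8). Those of Dnmt3l, at 273 (257 to 290) and 307 CPM (295 to 320), did not overlap either.

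Among cells without Fgf5 UMIs, the levels of genes outside the score differed between bins of the score. Sox2, a core pluripotency factor, stood at 110.1 CPM at a score under 1, 120.2 CPM at 2 to 3 and 212 CPM at 6 or more. Nanog, a homeobox factor of naïve cells, stood at 10.0 CPM in the lowest bin, 27.8 CPM at 4 to 5 and 51.7 CPM in the highest. Lefty1, a secreted inhibitor of Nodal, went the other way, from 523 CPM at a score under 1 to 257 CPM at 4 to 5 and 238 CPM at 6 or more. Utf1, a chromatin-associated factor of pluripotent cells, stayed between 925 and 967 CPM over all 7 bins. Pou5f1 (Oct4) stayed between 75.5 and 92.1 CPM. The plot of levels along the score shows the bins on both sides of the cut.

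**Figure D1:**
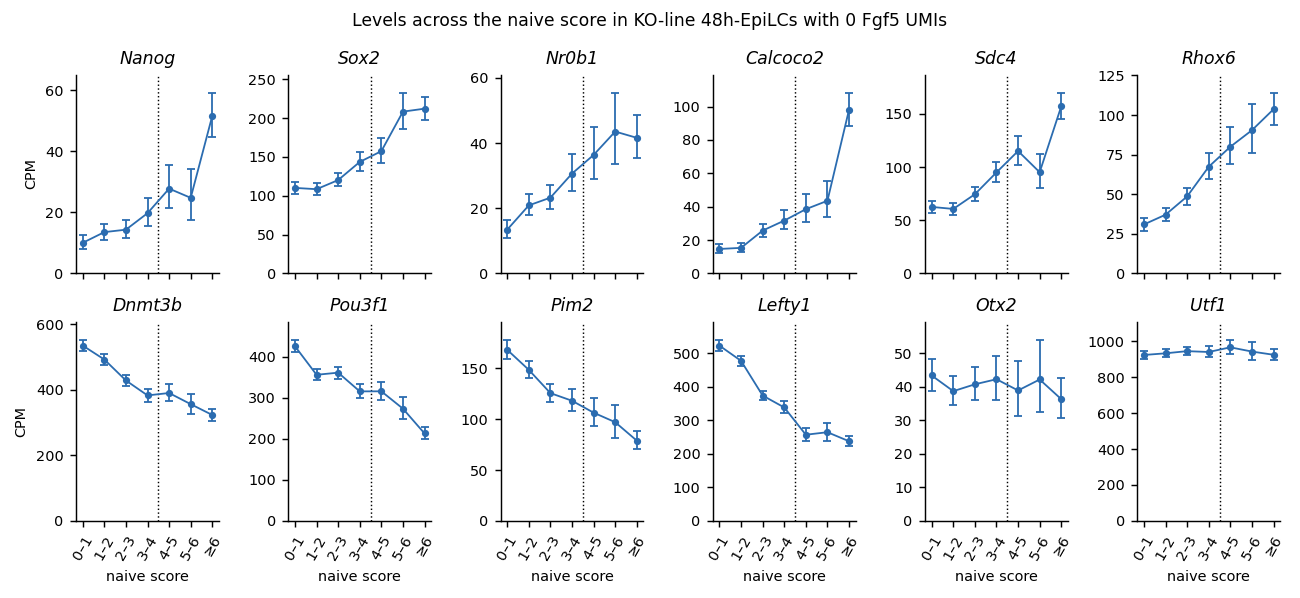
Levels of 12 genes (CPM of summed UMIs, vertical axes from 0) in KO-line 48h-EpiLCs without Fgf5 UMIs, binned by naïve score (horizontal axes); points are bins, bars are 95% Poisson intervals and the dotted line marks the cut at 4. Sox2 runs from 110.1 to 212 CPM and Lefty1 from 523 to 238 CPM, while Utf1 stays between 925 and 967 CPM.

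The members differed in depth and in doublet scores. Naïve-retaining cells had a median of 15698 UMIs and 4219 genes, and Fgf5-high cells 20240 UMIs and 4712 genes. After thinning each cell to 5000 UMIs, which left out 3 and 0 shallower cells, the median number of genes was 2163.5 and 2130. Mitochondrial transcripts took 3.34% and 3.15% of UMIs. Of the 348 Fgf5-high cells, 73 were among the top 10% of doublet scores of the library, against 26 of the 455 naïve-retaining cells, and the part of doublets in the results was not tested beyond leaving these cells out. Ratios were also taken in 275 cells of each group matched on UMIs, with medians of 17694 and 18025, and without the cells of high doublet score.

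Across the 7640 genes with a mean of at least 10 CPM that the choice did not use, 392 (5.13%) were at least 1.5-fold higher in naïve-retaining cells and 113 (1.48%) at least 1.5-fold lower, on the ratio of CPM + 1. In the matched cells 364 were higher and 134 lower, and without the cells of high doublet score 419 and 125. The median log2 ratio of all these genes was 0.03. Set directly against KO-line ESCs, naïve-retaining cells had 519 of 7764 genes (6.68%) at least 1.5-fold higher and 490 (6.31%) lower, and there the stage and the library cannot be told apart. Of the 392 higher genes, 231 stood in KO-line ESCs at or above their naïve-retaining level, 139 stood between the groups and 22 at or below the Fgf5-high level. Of the 113 lower genes, 83 stood in KO-line ESCs at or below their naïve-retaining level, 27 between the groups and 3 at or above the Fgf5-high level.

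The groups differed in the naïve score and in Fgf5, and the 840 KO-line cells with a score under 2 and no Fgf5 UMIs split the difference into 2 steps. Against these cells, 237 genes (3.09%) were at least 1.5-fold higher in naïve-retaining cells and 54 (0.703%) lower. Between these cells and Fgf5-high cells, 13 genes (0.172%) were higher and 11 (0.145%) lower. Of the 392 higher genes, 339 had the larger share of their log2 ratio in the step of the score, and of the 113 lower genes 92 did. The 2 steps are not alike, since the score sums several genes and Fgf5 is a single gene with few UMIs per cell. Thinned to 5000 UMIs per cell, Fgf5-high cells fell from 11.7% to 1.31% of the KO line. Cells without Fgf5 UMIs can thus hold undetected Fgf5. The counts therefore cannot decide whether genes followed the score more than Fgf5.

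The stage of the cells was read from genes that the choice did not use and that were set in the WT line, in which 80 genes (1.36% of 5868) were at least 4-fold higher in ESCs than in 48h-EpiLCs and 25 (0.426%) at least 4-fold lower. The 80 ESC genes took 0.688% of UMIs in KO-line ESCs, 0.242% in naïve-retaining cells (exact binomial interval 0.238 to 0.245), 0.149% in the other KO-line 48h-EpiLCs, 0.114% in Fgf5-high cells (0.112 to 0.117) and 0.108% in WT-line 48h-EpiLCs. The 25 EpiLC genes took 0.0397%, 0.131% (0.129 to 0.134), 0.195%, 0.228% (0.225 to 0.231) and 0.252% in the same order. On both readouts the naïve-retaining cells stood between KO-line ESCs and Fgf5-high cells. In the ESC genes they lay nearer to the Fgf5-high level, and in the EpiLC genes about midway. Among the 47 ESC genes that reached the filter in these cells, 39 were at least 1.5-fold higher in naïve-retaining cells and 0 lower, with a median log2 ratio of 1.25. Among 24 EpiLC genes, 0 were higher and 17 lower, with a median of -0.75. The filter was on the mean of the 2 groups, so a gene low in 1 group could reach it through the other. These counts and medians, and those of the lists below, lean towards larger differences to that extent. The counts over all genes above used the same filter, with 5.13% higher and 1.48% lower. Counts past 1.5-fold here and in the lists below are to be read against these shares. The shares of UMIs used all 80 and 25 genes, without this filter.

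Cell by cell the groups overlapped. Of the 455 naïve-retaining cells, 340 had a share of ESC genes above the 90th percentile of Fgf5-high cells, and 314 had a share of EpiLC genes below their 10th percentile. At the other end, 35 naïve-retaining cells reached the lowest decile of KO-line ESCs in the ESC genes. These 35 cells had a median score of 8.20 against 5.98 in the other 420, a median of 15794 against 15672.5 UMIs, and 0 against 26 cells of high doublet score. Without them 357 genes were higher and 104 lower.

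**Figure D2:**
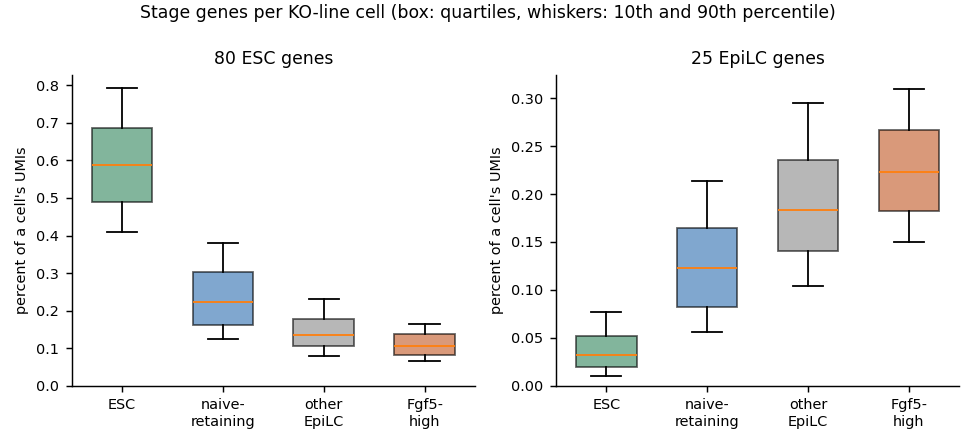
Percent of each KO-line cell's UMIs (vertical axes) in 80 ESC genes (left) and 25 EpiLC genes (right) in ESCs, naïve-retaining, other and Fgf5-high 48h-EpiLCs; boxes are quartiles with the median, whiskers the 10th and 90th percentiles over cells. Naïve-retaining cells have a median of 0.222% in the ESC genes, against 0.587% in ESCs and 0.106% in Fgf5-high cells.

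Other genes of the naïve network were mostly higher in naïve-retaining cells. Of 22 listed genes outside the score, 16 reached 10 CPM. Of these 10 were at least 1.5-fold higher and 0 lower (over all genes 5.13% and 1.48%), with a median log2 ratio of 0.81. Nanog stood at 39.4 CPM in naïve-retaining cells and 13.9 CPM in Fgf5-high cells (2.84-fold, 2.28 to 3.55), against 56.1 CPM in KO-line ESCs. Nr0b1 (Dax1), an orphan nuclear receptor that partners with Oct4, stood at 40.4 and 12.8 CPM (3.16-fold, 2.53 to 3.99) and at 92.6 CPM in ESCs. Zfp57, a zinc-finger protein that keeps imprints methylated, stood at 78.2 and 24.7 CPM (3.17-fold, 2.70 to 3.74). Fbxo15, an F-box gene of ESCs that overlaps Timm21 on the opposite strand, had the largest ratio of the 16 genes that reached the filter, at 26.4 and 4.71 CPM (5.61-fold, 3.95 to 8.15). Fbxo15 reached the filter through its naïve-retaining level.

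Several further members stood higher by smaller steps. Tdh, the threonine dehydrogenase on which mouse ESCs depend, stood at 34.9 and 14.6 CPM and at 133.8 CPM in ESCs, so the naïve-retaining level was well under that of ESCs. Pecam1, a surface adhesion molecule, stood at 35.3 and 16.7 CPM, and Sox15 at 17.2 and 7.93 CPM. Dppa3 (Stella), a maternal factor that guards methylation in the early embryo, stood at 63.2 and 33.8 CPM but at only 12.9 CPM in ESCs. Dppa3 was detected in 42.6% of naïve-retaining and 43.1% of Fgf5-high cells. Ooep stood at 61.9 and 36.9 CPM, and Dppa2, a chromatin factor, at 202.7 and 133.9 CPM (1.51-fold, 1.40 to 1.64).

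Not all of the network differed by that much. Fgf4, the FGF ligand made by naïve cells, stood at 59.8 and 61.5 CPM (0.972-fold, 0.855 to 1.11). Gdf3, a TGF-beta ligand, stood at 128.7 and 127.3 CPM (1.01-fold, 0.925 to 1.103). Gbx2 stood at 12.1 and 13.3 CPM, Morc1 at 20.1 and 16.5 CPM, Dppa4 at 205.6 and 171 CPM and Dppa5a, the most abundant gene of the list, at 2241 and 1539 CPM (1.46-fold, 1.42 to 1.49). Tfap2c, just under the filter, stood at 15.5 and 3.97 CPM (3.91-fold, 2.63 to 5.97). Nr5a2 (8.08 and 1.61 CPM), Tcl1 (6.67 and 1.74 CPM), Prdm14 and Spic were also under the filter. So was Jam2, an adhesion molecule, with 56 and 3 UMIs (19.3-fold, 6.28 to 96.5).

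Formative and primed genes were mostly lower in naïve-retaining cells. Of 21 listed genes besides Fgf5, 18 reached 10 CPM. Of these 0 were higher and 11 at least 1.5-fold lower (over all genes 5.13% and 1.48%), with a median log2 ratio of -0.61. Pou3f1 (Oct6), a POU factor of the formative state that overlaps Gm2164 on the opposite strand, stood at 255 CPM in naïve-retaining cells, 493 CPM in Fgf5-high cells (1.93-fold higher there, 1.83 to 2.04) and 78.7 CPM in KO-line ESCs. Dnmt3b, a de novo DNA methyltransferase, stood at 349, 639 and 258 CPM (1.83-fold, 1.75 to 1.92). Dnmt3b, Dnmt3a, Dnmt3l, Lef1, Tead2, Fgf15, Grhl2, Gbx2, Sox15, Tdh, Pou5f1, Sall4 and Lin28a also overlap genes on the opposite strand. So do Axin2, Pim1, Stat3, Bcl3 and Cish among the signalling genes below. The levels of all these genes are uncertain to that extent, since use of the strand in counting is not stated. Sall2 had the largest ratio of the 18 genes that reached the filter, at 5.52 and 22.3 CPM (4.05-fold higher in Fgf5-high cells, 2.89 to 5.78). Sox3 stood at 5.26 and 16.4 CPM and Fgf15, an FGF ligand, at 6.28 and 19.7 CPM. Sall2, Sox3 and Fgf15 reached the filter through their Fgf5-high level. Tcf15, a bHLH factor, stood at 27.6 and 50.1 CPM, Sox4 at 40.0 and 63.0 CPM, Zic2 at 18.7 and 29.3 CPM, and Tead2, a partner of YAP, at 58.1 and 88.6 CPM.

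Other formative genes lay nearer to each other. Otx2, the homeobox factor that drives the formative programme, stood at 38.2 and 53.9 CPM (1.41-fold higher in Fgf5-high cells, 1.21 to 1.64) and at 12.4 CPM in ESCs. Its gene overlaps the opposite-strand Otx2os1. Etv1, an ETS factor, stood higher in naïve-retaining cells, at 43.5 against 34.8 CPM. Foxd3 stood at 17.4 and 26.3 CPM, Zic5 at 46.7 and 60.5 CPM and Grhl2, a factor of the epithelial epiblast, at 34.1 and 35.7 CPM. Among the core factors Sox2 was past 1.5-fold, at 195 and 106 CPM (1.83-fold, 1.68 to 1.99) against 237 CPM in ESCs, and it holds Sox2ot on the same strand. Pou5f1 (86.1 and 79.8 CPM), Sall4 (97.7 and 88.4 CPM), Utf1 (942 and 933 CPM) and the Nodal co-receptor Tdgf1 (497 and 504 CPM) differed by 1.11-fold or less. Lin28a, which blocks let-7 maturation, stood at 83.9 and 126 CPM, 1.503-fold higher in Fgf5-high cells (1.36 to 1.66) and just under the threshold on the log2 ratio of CPM + 1.

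The genes of DNA methylation differed in both directions. Of 9, 8 reached 10 CPM, with 2 higher and 1 lower (over all genes 5.13% and 1.48%) and a median log2 ratio of 0.22. Dnmt3l, the catalytically inactive partner of the de novo enzymes, stood at 468 and 270.0 CPM (1.73-fold, 1.64 to 1.83), level with 473 CPM in ESCs. Tet2, a 5-methylcytosine dioxygenase, stood at 27.2 and 13.0 CPM (2.09-fold, 1.65 to 2.67). Dnmt3b, given above, and Dnmt3a (235 and 333 CPM) stood lower in naïve-retaining cells.

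By size of the ratio, and not by list, the 15 genes furthest above and the 15 furthest below are given next. They had a mean of at least 20 CPM and were past 1.5-fold in the matched cells as well. Of the higher genes, all but Mylpf, Rhox6, Sdc4 and Zfp57 were under 20 CPM in Fgf5-high cells. Those genes reached this filter through their naïve-retaining level. Among the lower genes, Sox11, Fzd2 and Kif21a reached it through their Fgf5-high level. Calcoco2 (chr11:96099326-96111964, minus strand, GRCm38), which encodes the autophagy receptor NDP52, ranked highest on the log2 ratio of CPM + 1 (2.41), with 69.8 CPM in naïve-retaining cells (64.0 to 75.9), 12.3 CPM in Fgf5-high cells (9.97 to 14.9), a 5.69-fold difference (4.58 to 7.12), and 106 CPM in ESCs. Mymx, a small fusogenic membrane protein known from muscle, stood at 41.8 and 7.31 CPM (5.72-fold, 4.32 to 7.68), a slightly larger ratio without the added 1. Mylpf, a myosin light chain of fast muscle, stood at 84.0 and 24.5 CPM and at 339 CPM in ESCs. Pdgfa, a growth factor whose gene overlaps 6330403L08Rik on the opposite strand, stood at 69.6 and 13.0 CPM (5.35-fold, 4.34 to 6.66) and at 133 CPM in ESCs. Arid5b, a DNA-binding chromatin factor, stood at 49.6 and 13.3 CPM and at 105 CPM in ESCs.

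X-linked homeobox genes of the Rhox cluster stood among them, at chrX:37826910-37829857 (Rhox6) and chrX:37899097-37901770 (Rhox9). Rhox6 stood at 94.02 and 27.8 CPM (3.39-fold, 2.91 to 3.95) and Rhox9 at 48.1 and 12.5 CPM (3.84-fold, 3.08 to 4.83). In KO-line ESCs they stood at 25.7 and 13.8 CPM, near the Fgf5-high level. These genes are members of one family, and how the counting split reads between near copies is not given in the sources used here. Sdc4, a cell-surface heparan sulphate proteoglycan, stood at 133 CPM in naïve-retaining cells, 40.8 CPM in Fgf5-high cells (3.25-fold, 2.87 to 3.69) and between them, at 76.2 CPM, in ESCs. The remaining higher genes were Phf11d, Ninl (which overlaps Nanp on the same strand), the lipid phosphatase Plpp3, the lysosomal protein Laptm5, the imprinted non-coding RNA H19 and, from the naïve list, Zfp57 and Nr0b1, at ratios of 3.13 to 3.93.

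Some of these ratios rested on few cells. The 23 naïve-retaining cells with the most UMIs of a gene (the top 5%) held 76.8% of the H19 UMIs, and H19 was detected in 17.4% of naïve-retaining and 17.0% of Fgf5-high cells. They held 50.9% of the Calcoco2 UMIs and 46.9% of those of Rhox9, against 21.5% for Zfp57 and 23.8% for Arid5b. The choice of the 35 cells at the ESC-gene share of ESCs used Calcoco2, one of the ESC genes (WT-line log2 ratio of 2.70). In these cells Calcoco2 stood at 348 CPM, and without them its ratio was 3.84-fold in place of 5.69-fold. Both values are thus partly built into the choice of cells. Sdc4, which did not pass the 4-fold that set the ESC genes (log2 ratio of 1.13), stood at 278 CPM in these 35 cells. Its ratio without them was 2.96-fold.

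Among the 15 genes furthest below, Pim2 led. Pim2 (chrX:7878262-7883432, plus strand), a serine/threonine kinase, stood at 90.7 CPM (84.1 to 97.6) and 241 CPM (231 to 252), 2.66-fold higher in Fgf5-high cells (2.44 to 2.91), and at 30.8 CPM in ESCs. The guidance molecule Sema6a stood at 28.6 and 65.7 CPM (2.30-fold, 1.96 to 2.70) and at 5.01 CPM in ESCs. The carbonic anhydrases Car4 and Car2 stood at 51.2 against 116 CPM (2.28-fold, 2.02 to 2.57) and 27.1 against 55.0 CPM (2.03-fold, 1.72 to 2.41). The syntaxin Stx3 stood at 54.3 and 119 CPM, the Wnt receptor Fzd2 at 14.4 and 30.1 CPM and the lipid carrier Fabp5 at 65.8 and 129.9 CPM. Sox11, Rragd (a GTPase of amino acid sensing), Pphln1, Kif21a, Marcks, Fam171b, Trio and Pou3f1 made up the rest, at 1.93- to 2.21-fold. For these genes the top 5% of Fgf5-high cells held between 13.7% and 24.8% of the UMIs.

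**Figure D3:**
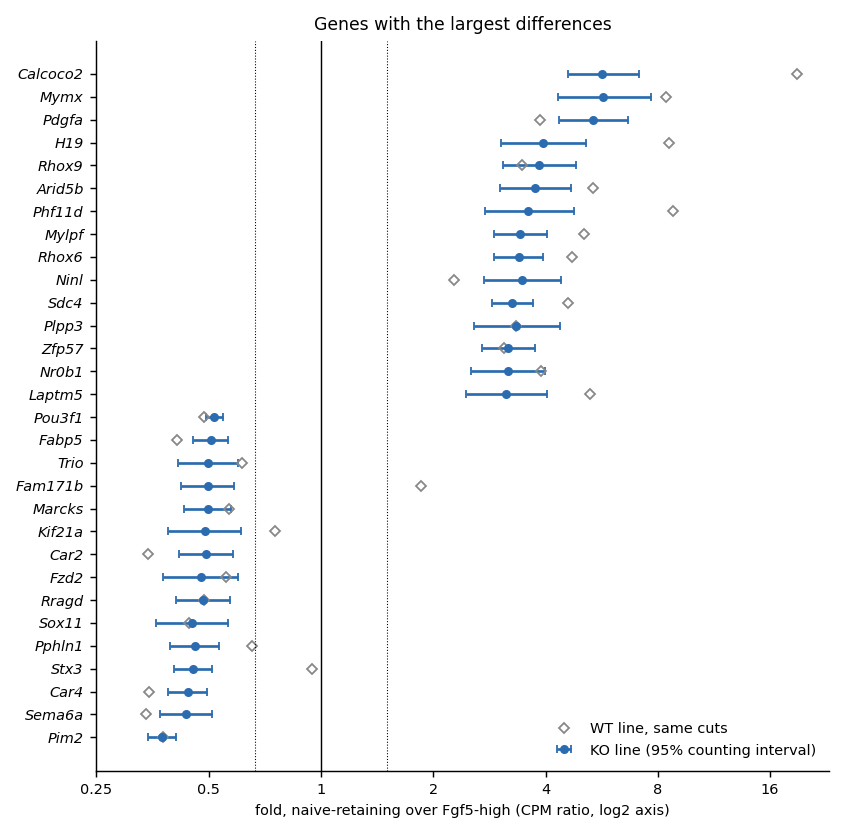
Ratio of CPM in naïve-retaining over Fgf5-high cells (horizontal log2 axis) for the 15 genes furthest above and below; filled points with 95% binomial intervals are the KO line and open diamonds the WT line under the same cuts, and dotted lines mark 1.5-fold. Calcoco2 lies at 5.69-fold in the KO line, and Fam171b is the gene whose diamond lies on the other side of 1.

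**Figure D4:**
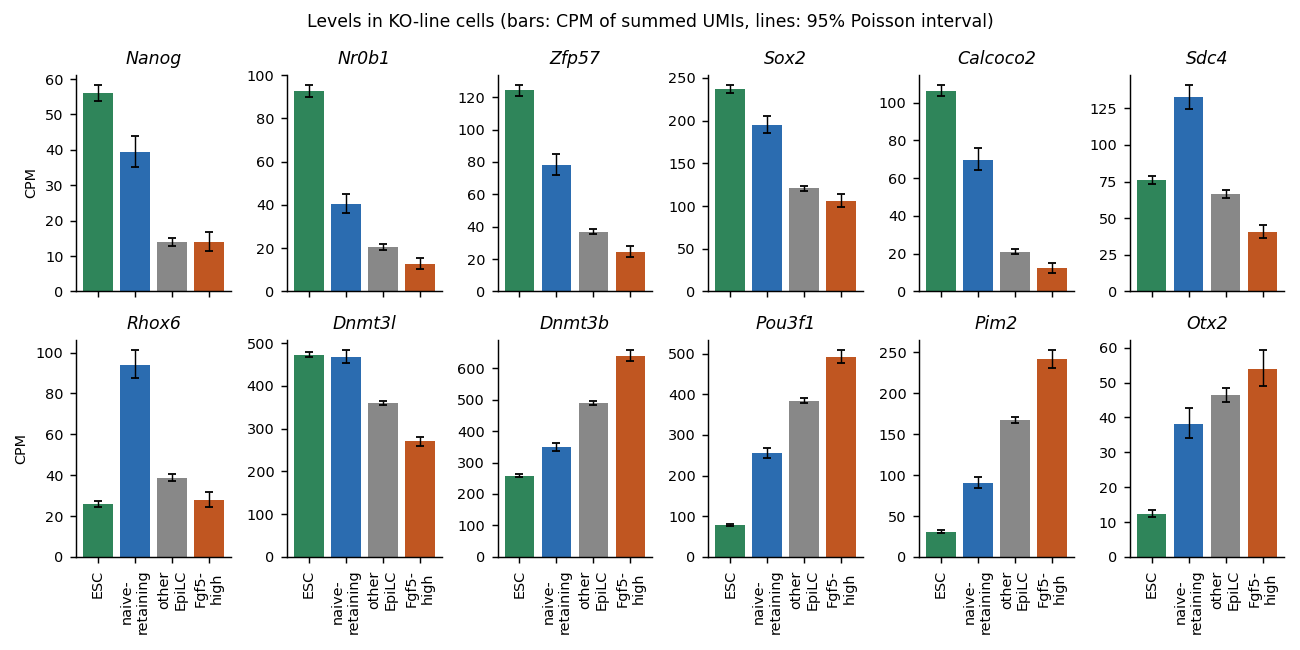
CPM of summed UMIs (vertical axes from 0) of 12 genes in KO-line ESCs (green), naïve-retaining (blue), other (grey) and Fgf5-high (orange) 48h-EpiLCs, with 95% Poisson intervals as bars. The naïve-retaining bar is the tallest for Sdc4 (133 CPM) and Rhox6 (94.02 CPM), and for Dnmt3b it stands at 349 CPM between 258 and 639 CPM.

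Signalling genes are shown in the plot of listed genes by pathway, and their counts past 1.5-fold are to be read against 5.13% higher and 1.48% lower over all genes. Of 19 genes of the FGF/ERK pathway that reached the filter, 1 was higher and 1 lower, with a median log2 ratio of 0.03. The ERK-induced factor Etv4 stood at 49.5 and 30.4 CPM (1.63-fold, 1.39 to 1.92), and the ERK phosphatase Dusp4 at 54.1 and 91.4 CPM (1.69-fold higher in Fgf5-high cells, 1.496 to 1.91). Of 11 Nodal/activin genes (median -0.02), the ligand Nodal stood at 76.1 and 48.8 CPM (1.56-fold, 1.37 to 1.77). Its inhibitor Lefty1 stood at 249 and 406 CPM (1.63-fold higher in Fgf5-high cells, 1.54 to 1.73). In cells with a score under 2 and no Fgf5 UMIs, Lefty1 stood above both groups, at 499.6 CPM (488.5 to 511.0). At a score under 2, Lefty1 stood at 450.1 CPM with 1 Fgf5 UMI, 416.8 CPM with 2 and 394.8 CPM with 3 or more. Lefty1 was thus lower at a higher score, and also lower with more Fgf5 UMIs. Of 11 Wnt genes (median -0.01), the feedback inhibitor Axin2 stood at 18.7 and 9.30 CPM (2.01-fold, 1.51 to 2.70) and the effector Lef1 at 52.8 and 80.3 CPM (1.52-fold higher in Fgf5-high cells). Of 11 listed LIF/STAT3 genes, 4 reached the filter and none of these passed 1.5-fold (median 0.20), with Pim1 at 209 and 173 CPM. Under the filter, the receptor gene Lifr stood at 14.5 and 3.72 CPM (3.90-fold, 2.59 to 6.04). Also under it, Socs3 differed 2.16-fold (1.41 to 3.38), Bcl3 2.17-fold (1.25 to 3.91) and Il6st 1.90-fold (1.19 to 3.07). The intervals of Stat3 (0.882 to 1.71), Jak2 (0.830 to 3.24) and Cish (0.679 to 2.69) held 1.

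Metabolic, adhesion, contractile and cell cycle lists had median log2 ratios between -0.16 and 0.18. The 18 glycolysis genes summed to 8515 CPM in naïve-retaining and 10127 CPM in Fgf5-high cells, a ratio of 0.841 (0.832 to 0.849). Of these genes 14 lay below 0 (median log2 ratio -0.16). The lactate exporter Slc16a3 stood at 123.9 and 228 CPM, Ldha at 699.6 and 999 CPM and Hk1, which was higher, at 25.5 and 16.4 CPM. Of 13 epithelial adhesion genes (median -0.10), the junction protein Jup stood at 58.0 and 30.5 CPM (1.90-fold, 1.62 to 2.23) and Cldn4 at 22.3 and 13.3 CPM. Of 13 contractile genes (median 0.18), Tagln2 stood at 174 and 104 CPM (1.68-fold, 1.54 to 1.83) and Cnn1 at 8.59 and 14.7 CPM. Among these genes 11 lay above 0, and the whole contractile list had a summed ratio of 1.25 (1.20 to 1.29). None of 20 S-phase genes (median 0.03) and none of 20 G2/M genes (median 0.14) passed 1.5-fold, and 19 of the G2/M genes lay above 0, with a summed ratio of 1.11 (1.09 to 1.12).

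**Figure D5:**
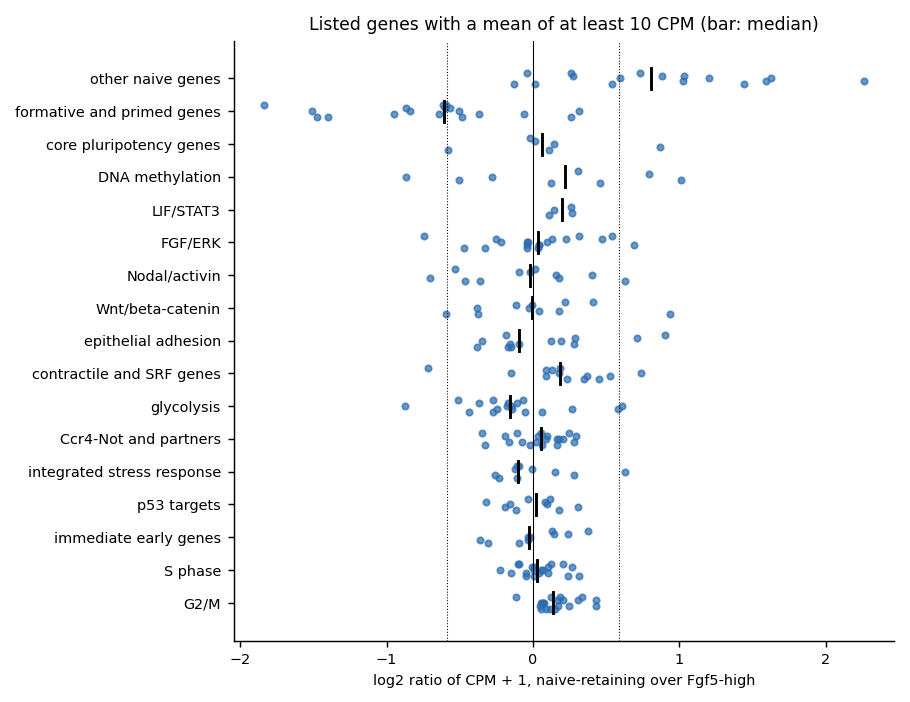
Log2 ratio of CPM + 1, naïve-retaining over Fgf5-high (horizontal axis), of each listed gene with a mean of at least 10 CPM, by list; bars are medians and dotted lines mark 1.5-fold. The medians are 0.81 for other naïve genes and -0.61 for formative and primed genes, and those of the remaining lists lie between -0.16 and 0.22.

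Of 20 Ccr4-Not subunits and partner proteins none passed 1.5-fold, with a median log2 ratio of 0.06 and a summed level of 2107 and 2106 CPM. The deadenylase gene Cnot6 stood lower by the most, at 37.5 and 48.0 CPM. The lists of p53 targets (10 genes, median 0.02) and immediate early genes (10 genes, median -0.03) had none past 1.5-fold, and that of the integrated stress response had Atf5 alone (17.8 and 11.2 CPM, 10 genes, median -0.10).

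The study's own lists were higher in naïve-retaining cells. Of the 296 and 1236 names in its naïve GRN-like and Cnot8-dependent degradation lists, 5 and 58 matched no feature by symbol and were left out. Of the naïve GRN-like genes without the score genes, 182 of 285 reached the filter, 109 were at least 1.5-fold higher and 0 lower, with a median log2 ratio of 0.68. Of the transcripts it named as degraded through Cnot8, 552 of 1172 reached the filter, 220 were higher and 1 lower, with a median of 0.47. Over all genes the shares were 5.13% higher and 1.48% lower. The study chose both lists on its own cultures of these lines, and they share 12 and 15 genes with the 22 naïve genes above, so they are no independent evidence of a direction.

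Markers of other cells were low in both groups, and their part in the results was not tested. The 10 feeder fibroblast markers summed to 7.18 and 15.5 CPM, with Col3a1 and Postn at 0 UMIs in both. The 10 primitive endoderm markers summed to 172 and 137 CPM, of which Sparc alone gave 158 and 123 CPM. The 10 markers of 2-cell-like cells summed to 3.59 and 1.49 CPM, those of mesendoderm to 12.1 and 16.1 CPM and the 8 of neuroectoderm to 16.9 and 20.0 CPM. Among 8 germ cell markers, of which 4 reached the filter with a median log2 ratio of -0.11, Stra8, a gene of the entry into meiosis, stood at 22.1 and 6.20 CPM (3.56-fold, 2.58 to 4.98) and at 47.9 CPM in ESCs.

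The same cuts were then applied to the 3427 WT-line 48h-EpiLCs, cells with 0 Y-linked UMIs and 0 UMIs of Ipp, a gene seen in the KO line. Naïve-retaining cells were 15.3% of the KO line (14.0 to 16.6) and 5.14% of the WT line (4.42 to 5.93), at a median depth of 17628 and 13963 UMIs. Thinned to 5000 UMIs per cell, which left out 9 and 131 shallower cells, they were 29.2% (27.6 to 30.9) and 10.3% (9.24 to 11.3). Among the 368 cells with a tdTomato UMI and no Y-linked UMI, 7 were naïve-retaining (1.90%, 0.768 to 3.88), and 33 of 367 after thinning (8.99%, 6.27 to 12.4). Fgf5-high cells were 11.7% of the KO line (10.6 to 12.9) and 18.3% of the WT line (17.0 to 19.7), and 1.31% and 2.82% after thinning. In KO-line and WT-line ESCs, 96.1% and 88.0% of cells met the naïve-retaining cuts. The 4 Y-linked genes that call the line stood higher in naïve-retaining than in Fgf5-high KO-line cells. Ddx3y stood at 71.8 and 53.7 CPM, Eif2s3y at 83.2 and 69.9 CPM, Uty at 22.1 and 15.1 CPM and Kdm5d at 4.62 and 2.36 CPM. The part of the line call in these shares was not tested beyond a stricter call, given at the end.

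In the WT line, 176 naïve-retaining cells stood against 628 Fgf5-high cells, and 725 genes (9.6%) were at least 1.5-fold higher and 237 (3.14%) lower. The 15 genes furthest above in the KO line were all at least 1.5-fold higher there too, and of the 15 furthest below 12 were at least 1.5-fold lower. Calcoco2 had a log2 ratio of 2.41 in the KO line and 3.99 in the WT line, and Pim2 of -1.40 in both. Fam171b was the exception in direction, with -0.98 and 0.83. Other naïve genes had a median of 1.15 in the WT line and formative genes of -0.61. The WT-line call rests on the absence of UMIs, and 31 of its 176 naïve-retaining cells had under 5000 UMIs. BC023719, which was higher in the KO line, stood at 20.0 CPM in them against 3.23 CPM in WT-line Fgf5-high cells and 32.9 CPM in the KO line, and tdTomato at 2.71 against 5.17 CPM. Among WT-line cells with a UMI of Dera or Slc25a13, genes that are low in the KO line, 64 of 2146 were naïve-retaining (2.98%, 2.30 to 3.79), and 222 of 2126 after thinning (10.4%, 9.17 to 11.8). The part of wrongly called cells in the WT-line values was not tested.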

How the data were processed

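Per the study's methods and the submitters' processing notes, the authors deposited counts of UMIs per gene and barcode, made with Cell Ranger 3.0.2 on mm10 with the tdTomato coding sequence added (32286 features). The deposited counts carry no stated correction for free RNA, and whether strand was used is not given in the sources used here. The libraries held 144584246 and 163771168 UMIs (ESCs and 48h-EpiLCs, medians of 10965.5 and 13333 per barcode).

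Barcodes under 1000 genes, or with over 10% of UMIs from mitochondrial genes, were left out. UMIs were summed per group and scaled to CPM. Genes with a mean of at least 10 CPM were compared on the log2 ratio of CPM + 1, with 1.5-fold as the threshold. Folds of single genes are ratios of CPM with exact binomial intervals, and shares carry Clopper-Pearson intervals, all at 95%. With 1 library per group no test was run. The steps were tested on simulated data.

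Named genes were the members of the naïve, formative and core lists, up to 4 members of other lists, and the 15 highest and 15 lowest ratios at a mean of at least 20 CPM that held in depth-matched cells (bins of 0.25 log2 UMIs, seed 1). The members and lists were chosen with earlier results of these data known.

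Scrublet in scanpy 1.11.5 (expected rate 0.1) marked 1 of 9400 cells (0.0106%) at its automatic threshold and had not worked, so no cells were removed and the top 10% of scores were left out as an alternative. Gene positions were from GENCODE M21 (GRCm38). Python 3.11.15, numpy 2.4.6, scipy 1.17.1, pandas 2.3.3 and matplotlib 3.10.9 were used. Alternatives changed the weighting of cells, depth, cuts, cell filter, doublets, line call, scaling, pseudocount, filter on low genes and the fold that set the stage genes. The WT-line call by Dera or Slc25a13 and leaving out 35 naïve-retaining cells at the ESC-gene share of ESCs were added after the data were seen. The values of 1 listed gene are not reported here.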

Additional observations from a re-analysis of the deposited data

Results flagged for a closer look

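Dusp4, an ERK phosphatase, moved in opposite directions under the same cuts in the 2 lines. Its log2 ratio of naïve-retaining over Fgf5-high cells was -0.74 in the KO line (54.1 and 91.4 CPM) and 0.81 in the WT line (69.8 and 39.3 CPM). In WT-line cells with a Dera or Slc25a13 UMI, which are low in the KO line, the ratio was 0.23. The difference between the lines was not tested, since there was 1 library.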

How the results depend on the processing

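No paired analysis was possible because there was 1 library per stage and no replicate. With a score of at least 6 and at least 3 Fgf5 UMIs, 591 genes were higher and 226 lower, the ESC-gene difference was 0.160 percentage points in place of 0.128, and the EpiLC-gene difference -0.116 in place of -0.0969. A pseudocount of 5 CPM left 71 lower genes. A filter at 5 CPM gave 589 and 210 genes, at 20 CPM 229 and 56, and at 1 UMI 1396 and 612. Stage genes set at 2-fold gave differences of 0.577 and -0.276, and at 8-fold 0.0414 and -0.0308. Without the cells of high doublet score the ESC-gene difference was 0.135. The naïve-retaining share of the KO line was 7.96% at a score of at least 6, 17.0% without the cells of high doublet score, 13.9% with at least 3 Y-linked UMIs and 1 Ipp UMI, and 29.2% after thinning. No result changed direction under the alternatives run. The median of other naïve genes ranged from 0.72 to 1.01 and that of formative genes from -0.83 to -0.57 over 13 alternatives each. The numbers of the 30 named genes with the same direction in the WT line were 29, 27 in tdTomato-positive cells and 28 in cells with a Dera or Slc25a13 UMI. The tdTomato-positive cells were only 7 naïve-retaining, with 104451 UMIs in all, and 68 Fgf5-high. A direction there rests on few UMIs per gene. The call by Dera or Slc25a13 and the removal of the 35 cells at the ESC-gene share of ESCs were chosen after seeing the data. The sparse counts limit single genes under about 10 CPM, and without replicates no interval covers variation between cultures.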

Other observations

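Some genes stood higher in naïve-retaining cells than in Fgf5-high cells and KO-line ESCs alike. There were 19 genes at least 1.5-fold above both, with a mean of at least 20 CPM and past 1.5-fold in the depth-matched cells, a group chosen after the values were seen. Dppa3, the maternal factor Stella, stood furthest above ESCs, at 63.2 CPM in naïve-retaining cells, 33.8 CPM in Fgf5-high cells and 12.9 CPM in ESCs. It was detected in 42.6% of naïve-retaining and 43.1% of Fgf5-high cells. Of its log2 ratio, 0.296 lay in the step of the score and 0.586 in that of Fgf5. In the WT line its log2 ratio of ESCs over 48h-EpiLCs was -0.84. Ptgr1, a prostaglandin reductase, stood at 127, 82.3 and 33.8 CPM. Ptgr1 was detected in 78.2% of naïve-retaining and 79.3% of Fgf5-high cells, and its WT-line log2 ratio of ESCs over 48h-EpiLCs was -1.50. Besides Rhox6 and Rhox9, the X-linked cluster gave Rhox1 at 26.0, 15.4 and 16.6 CPM. Plin2, which coats lipid droplets, stood at 56.2, 20.3 and 28.7 CPM, and the tubulin gene Tubb2a at 90.3, 32.4 and 47.0 CPM. The others were Csrp1, Creg1, Prorp, Baz1a, Rnf128, Rec114, Scmh1, Tspan9, Sdc4, Agpat3, Plekha2 and Fanci. Stage and library cannot be told apart in the comparison with ESCs.

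The 32 KO-line cells with a score of at least 4 and at least 2 Fgf5 UMIs had UMIs of both kinds of gene by choice. They had a median of 22803 UMIs, above that of either group, and 11 of them (34.4%) were among the top 10% of doublet scores. The ESC genes took 0.160% of their UMIs and the EpiLC genes 0.186%, between the values of naïve-retaining and Fgf5-high cells on both readouts, and the part of doublets was not tested.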
